A study of Homo sapiens with 10 samples.

Results

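A set of genes that carry glucose into the cell, commit it to glycolysis, turn pyruvate into lactate and move lactate and acid out were followed across 5 untreated human prostate cancer cell lines. They were taken as a named list and read as rows of the gene expression table, 10 of 60642 gene symbols, chosen by name and not by a threshold on a value, although earlier results of these data were known when the list was drawn up. The list holds the glucose transporter SLC2A1, the hexokinases HK1 and HK2, the phosphofructokinase PFKP, the pyruvate kinase PKM, the lactate dehydrogenase subunits LDHA and LDHB, the monocarboxylate transporters SLC16A1 and SLC16A3, and the carbonic anhydrase CA9. It includes the isoform pairs HK1 with HK2, LDHA with LDHB, and SLC16A1 with SLC16A3.

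The profiles are bulk poly(A) RNA-seq of PC3, DU145, LNCaP, DUCAP and VCAP, in 2 biological repeats per line (10 samples), made in the study as untreated line profiles for the prediction of drug response. LNCaP was isolated from a lymph node metastasis, VCAP and DUCAP from a vertebral and a dural metastasis of the same patient, DU145 from a brain metastasis and PC3 from a bone metastasis. All lines grew as untreated cultures in phenol-red free RPMI with fetal bovine serum and were harvested in exponential growth, and LNCaP was of clone FGC according to the methods of the study. Each line is a single established line, so the repeats measure the spread between cultures of that line and not between tumours, and the p-values below refer to that spread. In such bulk samples, fewer cells that express a gene and less RNA per cell cannot be told apart.

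Glycolysis splits glucose into pyruvate in the cytosol, and many tumour cells reduce much of that pyruvate to lactate even when oxygen is present. Hexokinase traps glucose as glucose 6-phosphate, phosphofructokinase makes the committed step, and pyruvate kinase makes the last. Lactate dehydrogenase is a tetramer of A subunits, which favour the reduction of pyruvate, and B subunits, which favour the oxidation of lactate. SLC16A1 (MCT1) carries lactate in either direction, while SLC16A3 (MCT4) is known as an exporter of highly glycolytic cells. Normal prostate epithelium is known for making citrate rather than burning it, and raised lactate production is a recognised feature of advanced disease.

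Several of these genes are textbook targets of the hypoxia-inducible factors, which bind the core ACGTG or GCGTG. Both strands of the RefSeq promoter windows of GRCh38.p14 were searched for these letters (ACGTG and GCGTG, with CACGT and CACGC for the other strand), each window running from 250 bases before to 50 bases after an annotated start, 300 bases in all. Overlapping matches were counted as 1 place, and CACGTG, which reads as the motif on both strands, is also the letters of an E-box. Windows were listed for 9 of the 10 genes (24 windows), and each of these 9 genes had the motif in at least 1 window (15 windows). Of all 35116 promoter windows, 48.4% held the motif, 20.0% at 2 or more places and 7.54% at 3 or more, so a single match is common. Shown are 4 windows, with the matches in capitals. LDHA and LDHB are the isoform pair of which PC3 had the most LDHA and the least LDHB, and SLC16A3 and CA9 are the gene with the widest range and the gene that was close to 0 throughout. The LDHA window is at chr11:18394313-18394612 on the plus strand, the LDHB window at chr12:21657793-21658092 on the minus strand, the SLC16A3 window at chr17:82228792-82229091 on the plus strand and the CA9 window at chr9:35673678-35673977 on the plus strand. LDHA has 2 windows and SLC16A3 has 5, and the SLC16A3 window shown is the one of these that holds ACGTG. The LDHA window shown is the one with more matches, since the other held only CACGC, at 123 bases before its start.
LDHA: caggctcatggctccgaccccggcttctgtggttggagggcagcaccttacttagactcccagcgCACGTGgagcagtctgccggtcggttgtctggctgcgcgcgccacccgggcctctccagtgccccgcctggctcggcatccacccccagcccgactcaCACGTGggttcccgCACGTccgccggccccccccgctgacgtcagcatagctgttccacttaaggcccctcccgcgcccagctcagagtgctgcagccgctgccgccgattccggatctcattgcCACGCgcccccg
LDHB: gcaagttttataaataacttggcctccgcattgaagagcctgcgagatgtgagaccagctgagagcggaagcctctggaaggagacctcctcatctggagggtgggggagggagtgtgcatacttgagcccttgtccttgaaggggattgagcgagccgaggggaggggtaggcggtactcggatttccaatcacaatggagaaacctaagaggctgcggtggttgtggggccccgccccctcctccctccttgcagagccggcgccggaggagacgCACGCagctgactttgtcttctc
SLC16A3: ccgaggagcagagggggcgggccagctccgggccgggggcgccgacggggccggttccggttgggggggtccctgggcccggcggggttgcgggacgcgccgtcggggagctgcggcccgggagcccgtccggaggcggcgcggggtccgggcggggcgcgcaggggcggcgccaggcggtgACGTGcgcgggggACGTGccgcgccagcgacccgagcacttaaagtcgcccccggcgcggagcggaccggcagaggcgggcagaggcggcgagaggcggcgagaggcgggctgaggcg
CA9: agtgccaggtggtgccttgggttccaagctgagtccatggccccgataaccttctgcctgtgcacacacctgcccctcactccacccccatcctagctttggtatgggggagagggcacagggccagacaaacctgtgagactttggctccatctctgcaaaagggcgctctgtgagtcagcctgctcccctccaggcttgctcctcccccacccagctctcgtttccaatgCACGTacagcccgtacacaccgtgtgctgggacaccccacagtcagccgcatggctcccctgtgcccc
The LDHA window held the motif at 4 places, with CACGTG starting 185 and 87 bases before the start site, CACGT 73 bases before it, and CACGC 39 bases after it. The LDHB window held CACGC once, at 28 bases after the start. The SLC16A3 window held ACGTG at 68 and 55 bases before the start, and the CA9 window held CACGT once, at 18 bases before it. A match is a description of the letters and not of binding.

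Levels are given in TPM, a share of the transcripts of a sample that is corrected for transcript length and therefore allows one gene to be set beside another. They keep no read depth, so no counting error can be given for any value. Lines were compared with limma on log2(TPM + 1) over the 17520 genes that reached 1 TPM in at least 2 samples, and a difference is called higher or lower where its Benjamini-Hochberg adjusted p over all of these genes is under 0.05. CA9 did not reach that level and 9 of the 10 genes were tested. The epithelial markers EPCAM (23.4 to 264 TPM) and KRT8 (98.95 to 858 TPM) were present in every line. CDH1 was lower in DU145 (46.29 to 72.35 TPM) and PC3 (3.78 to 9.74 TPM) than in the other lines (104.47 to 374.51 TPM). VIM was at 799 to 1201 TPM in DU145 and PC3 and at most 4.25 TPM elsewhere. CAV1 was at 216 to 405 TPM in DU145 and PC3 and at most 0.78 TPM elsewhere. The prostate marker HOXB13 was at or under 0.03 TPM in DU145. ERG was at 122 to 199 TPM in DUCAP and VCAP and at most 0.19 TPM elsewhere. The summed level of 6 blood, vessel and stromal markers was 1.13 to 7.27 TPM in 4 lines and 33.4 to 39.6 TPM in PC3, where COL1A1 made up most of it and PTPRC and PECAM1 were at or under 0.43 TPM. Its part in the values of PC3 was not tested. The mitochondrially encoded transcripts took 12.7% to 22.5% of the TPM of DU145 and PC3, 18.9% to 19.7% in LNCaP and 32.1% to 36.0% in DUCAP and VCAP. Since TPM are shares of a fixed total, a larger mitochondrial share leaves less for all other genes, and the comparisons below were also made without these transcripts. The 2 repeats of DU145 stood further apart than those of the other lines, with 998 genes at least 2-fold higher in repeat 1 and 663 in repeat 2, against at most 271 in one direction in any other line. Each comparison below was therefore also run without each DU145 repeat.

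**Figure D1:**
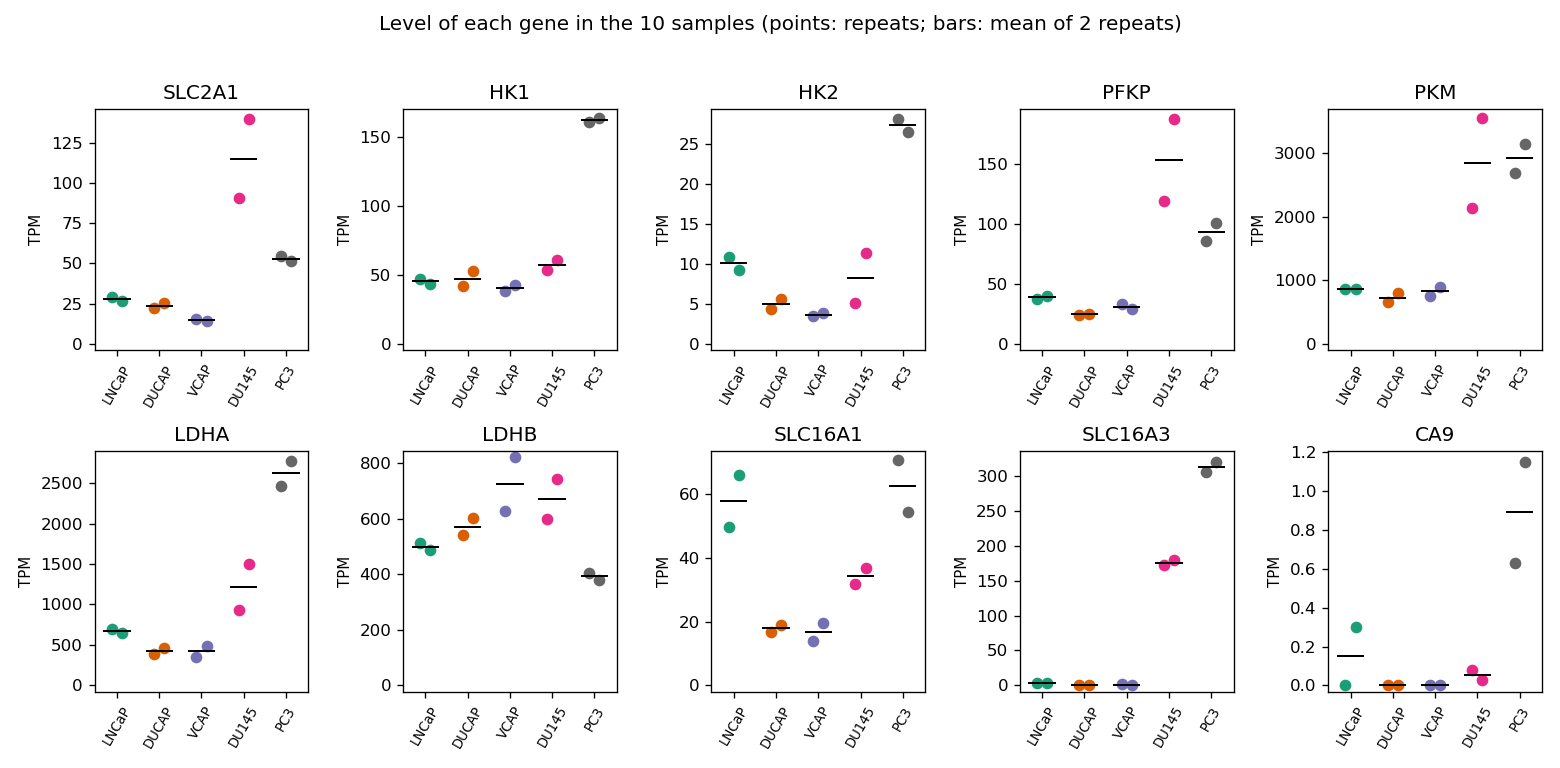
Level of each gene in TPM (vertical axis, linear, own scale per panel) in the 5 lines (horizontal axis), with a point for each repeat and a bar at the mean of the 2 repeats. SLC16A3 was between 172 and 320 TPM in DU145 and PC3 and at most 3.91 TPM in the other lines, HK1 and LDHA were highest in PC3, SLC2A1 and PFKP were highest in DU145, and the 10 points of LDHB lie between 381 and 824 TPM.

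The 10 genes together summed to 4140 and 6404 TPM in DU145 and to 6266 and 7020 TPM in PC3. The sums were 2249 and 2187 TPM in LNCaP, 1688 and 1992 TPM in DUCAP, and 1843 and 2313 TPM in VCAP. PKM and LDHA alone made up 59.6% to 84.3% of these sums, so the sum is mainly a statement about those enzymes. All 9 tested genes differed between the lines in the F test over the 5 lines, with adjusted p from 1.93e-08 for SLC16A3 to 0.00546 for LDHB, but so did 90.8% of all genes tested. For each gene the lines were also put in order of their mean, and the 4 steps between neighbours were read from the fit. Between a pair of lines, 60.7% of all genes were called for LNCaP with DUCAP, 60.1% for LNCaP with VCAP, 55.9% for LNCaP with DU145, 57.7% for LNCaP with PC3, 66.6% for DUCAP with DU145, 65.4% for VCAP with DU145, 67.8% for DUCAP with PC3 and 67.6% for VCAP with PC3. In all, 16 of the 36 steps of the 9 genes were called. Because the order was set by the same values, the steps only describe separation. The shares above are for fixed pairs of lines and not for neighbours in such an order. Lines further apart in the order can differ where the steps between them were not called.

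SLC2A1 (GLUT1), the widely expressed glucose transporter, stands for glucose uptake in the list. DU145 had 90.65 and 139.87 TPM in its 2 repeats and PC3 had 54.45 and 51.7 TPM. LNCaP had 29.14 and 26.54 TPM, DUCAP 22.2 and 25.27 TPM, and VCAP 15.45 and 14.29 TPM. Every DU145 and PC3 sample was above every sample of the other lines. DU145 exceeded PC3 (log2 difference 1.07 ± 0.20 SE, adjusted p = 0.00249) and PC3 exceeded LNCaP (0.91 ± 0.20, adjusted p = 0.00444). LNCaP with DUCAP and DUCAP with VCAP did not differ past the threshold, but LNCaP minus VCAP did (0.86 ± 0.20, adjusted p = 0.0056). The mean of the highest line was 7.75 times that of the lowest. SLC2A3, the high-affinity transporter known from neurons, was at most 1.54 TPM in any sample.

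The hexokinases differed in level and in which line stood out. HK1, the constitutive form that binds mitochondria, had 161 and 164.35 TPM in PC3. It had 53.25 and 60.51 TPM in DU145, 41.99 and 52.73 TPM in DUCAP, 47.09 and 43.4 TPM in LNCaP, and 38.45 and 42.41 TPM in VCAP. PC3 was above DU145 by 1.50 ± 0.15 on the log2 scale (adjusted p = 6.99e-05). None of the next 3 steps down the order was called, but VCAP minus DU145 was (-0.48 ± 0.15, adjusted p = 0.0183). HK2, the inducible form of muscle and tumours, was lower than HK1 in every sample. It had 28.2 and 26.59 TPM in PC3, 10.9 and 9.29 TPM in LNCaP and 5.09 and 11.33 TPM in DU145. DUCAP had 4.35 and 5.65 TPM and VCAP 3.43 and 3.89 TPM. PC3 exceeded LNCaP (1.36 ± 0.30, adjusted p = 0.00474), and the DU145 repeats spanned the level of LNCaP. HK3 was at most 0.18 TPM in every sample, and HKDC1 reached 5.72 TPM in DU145 and 1.97 TPM in PC3 against at most 0.03 TPM elsewhere. HK2 made up 8.19% to 18.8% of the HK1 and HK2 sum, highest in LNCaP with 18.8% and 17.6%. The log2 ratio of HK2 to HK1 differed by 1.09 between LNCaP and VCAP, the highest and lowest lines. For this and the other ratios below, 1 TPM was added to each gene. An exact permutation test over all 945 ways of pairing the samples did not call the ratio (adjusted p = 0.0857 over the 3 ratios tested). This test, here and for the ratios below, asked whether the 5 lines differ and not how wide the span is. The DU145 repeats differed in the pair, with HK2 at 8.72% and 15.8% of the sum. Without either of them the span was still 1.09. The test was not read there, since a line with 1 sample adds no spread between repeats to it.

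PFKP, the platelet type subunit of phosphofructokinase, followed the same order at the top as SLC2A1. It had 118.72 and 187.48 TPM in DU145, 85.98 and 100.56 TPM in PC3 and 37.38 and 39.67 TPM in LNCaP. VCAP had 32.8 and 28.82 TPM and DUCAP 24.19 and 25.15 TPM. Neither step among the 3 lower lines was called, but LNCaP minus DUCAP was (0.62 ± 0.21, adjusted p = 0.0296). PC3 exceeded LNCaP by 1.25 ± 0.21 (adjusted p = 0.000996). The muscle type subunit PFKM ran the other way, with 50.71 to 63.24 TPM in DU145 and PC3 and 83.47 to 124.7 TPM in the other lines. It was lower in DU145 and PC3 by 0.91 on the log2 scale (adjusted p = 1.2e-05) with no overlap between the groups. The liver type subunit PFKL was 70.41 to 139.65 TPM in DU145 and PC3, 91.17 and 89.96 TPM in LNCaP and 29.0 to 44.59 TPM in DUCAP and VCAP. PFKP was thus the most abundant of the 3 subunits in DU145, PFKL in PC3, and PFKM in LNCaP, DUCAP and VCAP.

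PKM, the gene of the M1 and M2 splice forms of pyruvate kinase, was the most abundant of the 10 genes in every sample. DU145 had 2131.79 and 3550.93 TPM and PC3 had 2694.18 and 3142.25 TPM. LNCaP had 857.75 and 864.57 TPM, VCAP 756.88 and 889.95 TPM, and DUCAP 649.17 and 795.93 TPM. The step from LNCaP up to DU145 was called (1.67 ± 0.23, adjusted p = 0.000391), and no other step between neighbours was. DU145 and PC3 differed by -0.08 ± 0.23, a difference that turned to 0.29 without DU145 repeat 1 and to 0.03 without PC3 repeat 2. A value per gene does not separate the splice forms. The liver and red cell gene PKLR was at most 0.35 TPM in every sample.

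The lactate dehydrogenase subunits diverged between the lines. LDHA had 2460.65 and 2778.42 TPM in PC3, 935.02 and 1495.17 TPM in DU145 and 699.58 and 647.52 TPM in LNCaP. DUCAP had 387.46 and 466.62 TPM and VCAP 353.04 and 489.66 TPM. In this order 3 of the 4 steps were called, from PC3 to DU145, to LNCaP and to DUCAP. LDHB had the narrowest range of the 9 tested genes, with the highest line mean 1.85 times the lowest. VCAP had 627.39 and 823.74 TPM, DU145 600.91 and 742.83 TPM and DUCAP 542.22 and 601.55 TPM. LNCaP had 513.29 and 487.19 TPM and PC3 404.65 and 380.72 TPM. No step between neighbours was called, but VCAP minus PC3 was (0.87 ± 0.16, adjusted p = 0.00151). PC3 thus had the highest LDHA and the lowest LDHB of the 5 lines.

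Read as a pair, LDHB supplied 64.0% and 62.7% of the LDHA and LDHB sum in VCAP and 58.3% and 56.3% in DUCAP. It supplied 42.3% and 42.9% in LNCaP, 39.1% and 33.2% in DU145, and 14.1% and 12.1% in PC3. No 2 lines overlapped in this share. The mean log2 ratio of LDHB to LDHA ran from 0.79 in VCAP to -2.73 in PC3, a span of 3.52 with an exact permutation p of 0.00106, the smallest this design can give, and an adjusted p of 0.00317. Without the added 1 TPM a ratio does not depend on the sample total, and the span was then 3.53 with the same exact permutation p. The testis form LDHC was at most 0.36 TPM. The 6 LDHA pseudogene symbols summed to at most 17.93 TPM and 1.51% of their sum with LDHA, and the pseudogenes of PKM and LDHB to at most 0.083% and 0.072%, which is where reads of near-identical copies could have been divided.

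The monocarboxylate transporters gave the largest contrast. SLC16A3 had 305.77 and 319.91 TPM in PC3 and 172.4 and 179.29 TPM in DU145. LNCaP had 3.91 and 2.8 TPM, VCAP 1.24 and 1.1 TPM, and DUCAP 0.13 and 0.14 TPM. All 4 steps were called, with 5.36 ± 0.16 between DU145 and LNCaP on the log2(TPM + 1) scale (adjusted p = 9.41e-08), a scale that understates differences among values near or under 1 TPM. SLC16A1 had a different order, with 70.89 and 54.61 TPM in PC3 and 49.63 and 66.05 TPM in LNCaP. DU145 had 31.91 and 36.98 TPM, DUCAP 16.78 and 19.11 TPM, and VCAP 13.97 and 19.6 TPM. PC3 and LNCaP overlapped, and the steps from LNCaP to DU145 (0.72 ± 0.22, adjusted p = 0.0223) and from DU145 to DUCAP (0.90 ± 0.22, adjusted p = 0.00634) were called. The antisense transcript SLC16A1-AS1 reached at most 3.01 TPM.

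SLC16A3 made up 84.4% and 82.9% of the SLC16A1 and SLC16A3 sum in DU145 and 81.2% and 85.4% in PC3. It made up 7.30% and 4.07% in LNCaP, 8.15% and 5.31% in VCAP, and 0.769% and 0.727% in DUCAP. DU145 and PC3 thus had nearly the same share, while their summed level was 204 and 216 TPM in DU145 and 377 and 375 TPM in PC3. The log2 ratio of SLC16A3 to SLC16A1 spanned 6.38 between lines with 1 TPM added to each gene (exact permutation p = 0.0127, adjusted p = 0.0190) and 9.41 without it (unadjusted exact p = 0.00741), since the DUCAP levels of SLC16A3 were far under 1 TPM. BSG (basigin), the chaperone that brings both transporters to the membrane, was present everywhere, at 152.0 to 607 TPM, and was higher in DU145 and PC3 by 0.73 (adjusted p = 8.9e-05). EMB (embigin), listed with the transport genes, had 47.69 and 45.71 TPM in DU145 and 5.29 and 6.52 TPM in PC3. The pyruvate-preferring SLC16A7 (MCT2) was at most 1.26 TPM.

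**Figure D2:**
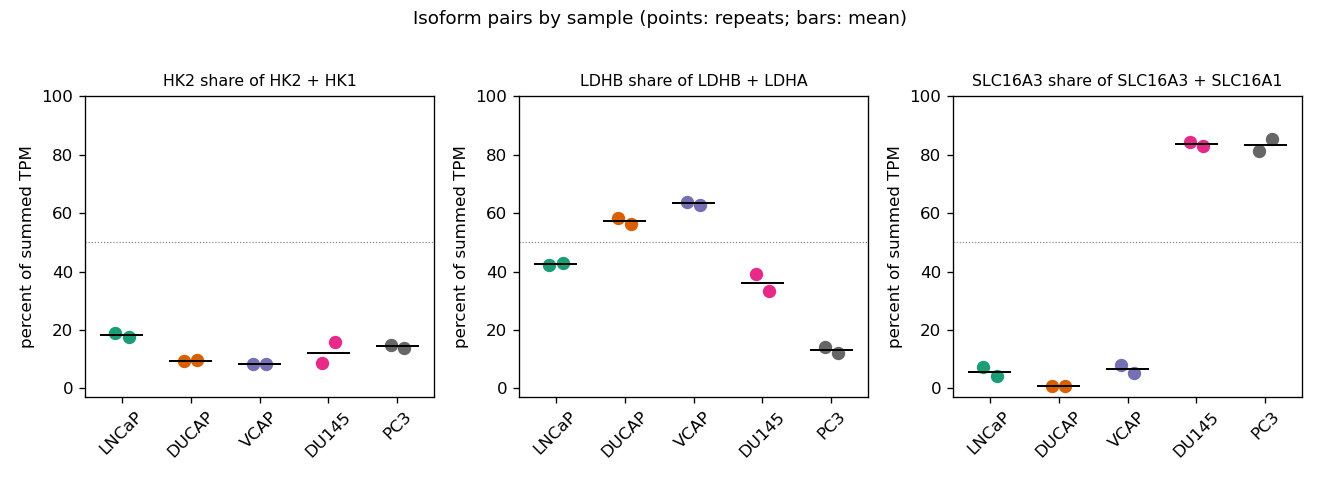
Share of one gene of each pair in the summed TPM of the pair (vertical axis, percent) in the 5 lines, with a point for each repeat, a bar at the mean and a dotted line at 50%. The LDHB share runs from 64.0% in VCAP to 12.1% in PC3, the SLC16A3 share is 81.2% to 85.4% in DU145 and PC3 and at most 8.15% in the other lines, and the HK2 share stays at or under 18.8%.

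CA9, the membrane carbonic anhydrase used as a marker of hypoxia, was close to absent. It was 0.63 and 1.15 TPM in PC3, 0.08 and 0.03 TPM in DU145 and 0 and 0.3 TPM in LNCaP, and it was listed at 0 in all DUCAP and VCAP samples. It failed the filter on low values, and without that filter the log2 difference between DU145 with PC3 and the other lines was 0.43 (adjusted p = 0.0106). PC3 carried that call, because DU145 minus PC3 was -0.83 (adjusted p = 0.00728) and DU145 was not called against LNCaP, DUCAP or VCAP (adjusted p = 0.654, 0.811 and 0.804). The related CA12 was better expressed, with 30.78 and 38.98 TPM in VCAP and 20.05 and 23.34 TPM in DUCAP. It had 12.19 to 13.44 TPM in LNCaP and PC3 and 2.98 and 3.17 TPM in DU145, and CA2 had 8.09 and 13.5 TPM in DU145 and at most 0.07 TPM elsewhere.

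The 5 lines were also compared in 4 contrasts that together hold all differences between them. Against LNCaP, DUCAP and VCAP, the pair of DU145 and PC3 was higher for 8 of the 9 tested genes and lower for none, where 51.9% of all tested genes were higher and 74.4% were called in either direction. Of the 9, 7 were higher by at least 2-fold, against 26.7% of all genes, and 6 had no overlap between the groups, against 19.8% (6.92% of all genes had none in the lower direction). The log2 differences were 6.74 ± 0.10 SE for SLC16A3 (mean 244 TPM against 1.55 TPM, adjusted p = 2.35e-09), 1.90 ± 0.13 for PFKP, 1.84 ± 0.16 for LDHA, 1.82 ± 0.15 for PKM and 1.81 ± 0.13 for SLC2A1. HK2 at 1.22 ± 0.19, HK1 at 1.11 ± 0.09 and SLC16A1 at 0.82 ± 0.14 followed, and HK2 and SLC16A1 overlapped between the groups. LDHB was the exception at -0.20 ± 0.10 (adjusted p = 0.110).

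These values depend on how the totals are set, because the median of all genes was itself shifted by 0.40 in this contrast, by 0.46 between LNCaP and the mean of DUCAP and VCAP, and by -0.12 between DUCAP and VCAP. Relative to that median, SLC16A3 was higher by 6.34, PFKP by 1.50, LDHA by 1.43, PKM by 1.42, SLC2A1 by 1.40, HK2 by 0.82, HK1 by 0.71 and SLC16A1 by 0.42, and LDHB was at -0.60. Rescaling without the mitochondrial genes brought the share of higher genes among all calls from 69.8% to 61.3%, quantile normalization to 46.2% and median-ratio scaling to 52.1%. Under the same settings SLC16A3 stayed between 6.36 and 6.78, PFKP between 1.37 and 1.67, LDHA between 1.36 and 1.88, PKM between 1.35 and 1.93 and SLC2A1 between 1.28 and 1.58. LDHB was called lower under all 3 (-0.45, -0.53 and -0.68), and SLC16A1 was no longer called under quantile normalization (0.27, adjusted p = 0.0923). HK1 and HK2 were still called at 0.54 to 0.87 and 0.63 to 1.03.

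**Figure D3:**
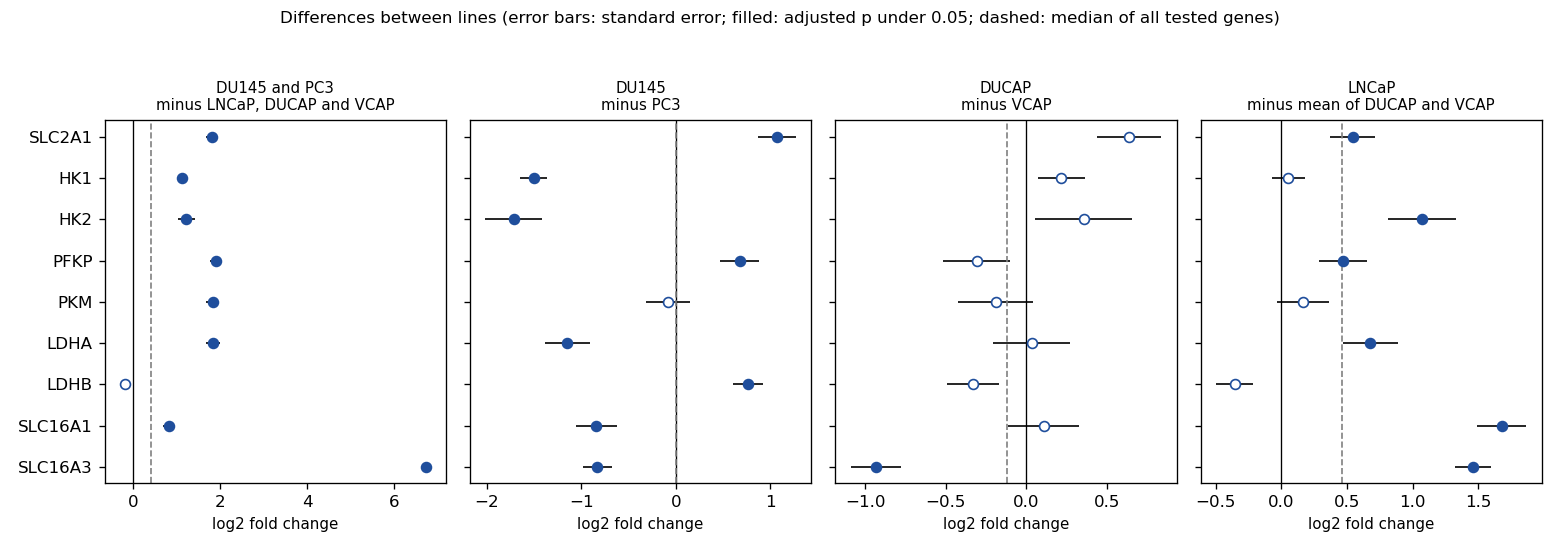
Log2 fold change of the 9 tested genes on the log2(TPM + 1) scale (horizontal axis, own scale per panel) in the 4 contrasts, with error bars of 1 standard error, filled points for adjusted p under 0.05 and a dashed line at the median of all tested genes. SLC16A3 at 6.74 stands far to the right between DU145 with PC3 and the other lines, LDHB is left of the dashed line there, and between DUCAP and VCAP only SLC16A3 is filled.

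Within the high pair, the genes did not go together. DU145 was higher than PC3 for SLC2A1 (1.07 ± 0.20), LDHB (0.77 ± 0.16) and PFKP (0.68 ± 0.21). It was lower for HK2 (-1.71 ± 0.30), HK1 (-1.50 ± 0.15), LDHA (-1.14 ± 0.24), SLC16A1 (-0.84 ± 0.22) and SLC16A3 (-0.83 ± 0.16). In all, 3 genes were higher and 5 lower with no overlap between the lines, where 49.3% of all genes were called, 23.8% higher and 25.5% lower, and 34.9% and 36.3% had no overlap in those directions. DU145 thus had more RNA of the transporter SLC2A1 and of PFKP, and PC3 of the hexokinases, LDHA and the lactate transporters. PFKP lost its call without DU145 repeat 2 (0.35, adjusted p = 0.0787), without PC3 repeat 1 (0.57, adjusted p = 0.149) and without PC3 repeat 2 (0.79, adjusted p = 0.0621). SLC16A1 lost it without DU145 repeat 1 (-0.74, adjusted p = 0.0582) and without PC3 repeat 1 (-0.65, adjusted p = 0.102).

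Between DUCAP and VCAP, from the same patient, SLC16A3 was the gene called on the deposited scale (DUCAP minus VCAP -0.93 ± 0.16, adjusted p = 0.00511), with both lines at or under 1.24 TPM, where 18.3% of all genes were called, 4.24% as higher in DUCAP and the rest as lower. SLC2A1 was at 0.64 ± 0.20 (adjusted p = 0.0602), which missed the threshold. It was called under the 3 other scalings (0.62, 0.81 and 0.86) and without either DU145 repeat. HK1, at 0.22, was called under quantile normalization (0.36, adjusted p = 0.0453) and median-ratio scaling (0.43, adjusted p = 0.0428). In all, 2 of the 9 genes were higher and 3 lower in DUCAP with no overlap, against 17.9% and 41.1% of all genes. LNCaP was higher than the mean of DUCAP and VCAP for 6 of the 9 genes and lower for none, where 64.6% of all genes were called and 49.2% were higher. For 6 genes the LNCaP repeats were above all DUCAP and VCAP samples, against 53.0% of all genes, and for LDHB they were below, against 16.4%. The calls became 3 higher and 1 lower without the mitochondrial genes and 2 higher and 2 lower under quantile normalization and under median-ratio scaling. HK1, at 0.05, was then among the lower ones (-0.55, adjusted p = 0.00105, and -0.60, adjusted p = 0.00154). SLC16A1 (1.68 ± 0.19, adjusted p = 9.16e-05) and SLC16A3 (1.46 ± 0.14, adjusted p = 2.9e-05) kept their calls under all 3 other scalings. HK2 (1.07 ± 0.26), LDHA (0.68 ± 0.21), SLC2A1 (0.54 ± 0.17) and PFKP (0.47 ± 0.18) lost theirs under at least 2 of them, and SLC2A1 and PFKP then turned to values under 0 under quantile normalization and median-ratio scaling. The 6 calls dropped to 2 without LNCaP repeat 1 and to 3 without LNCaP repeat 2 or DUCAP repeat 1. LDHB was at -0.36 ± 0.14 (adjusted p = 0.0529) and was called lower under the 3 other scalings, at -0.65, -0.60 and -1.02. With this contrast the share of higher genes among all calls moved from 76.1% to 66.6%, 50.4% and 51.3% under the 3 scalings, and between DUCAP and VCAP it moved from 23.2% to 21.4%, 50.3% and 45.8%.

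The DU145 repeats differed in the level of several of these genes. All 9 tested genes were higher in repeat 2 of DU145, where 45.8% of all genes were. In DUCAP all 9 were higher in repeat 2 as well, where 64.3% of all genes were, and 3, 6 and 5 of the 9 were in LNCaP, VCAP and PC3. The ratio of repeat 2 to repeat 1 was 2.23 for HK2, 1.67 for PKM, 1.60 for LDHA, 1.58 for PFKP and 1.54 for SLC2A1, and 15.8% of all genes reached a ratio of 1.5. LDHB at 1.24, SLC16A1 at 1.16, HK1 at 1.14 and SLC16A3 at 1.04 were closer to each other in the repeats. The median of the 9 differences on the log2(TPM + 1) scale was 0.62 in DU145, against 0.18 in DUCAP, 0.14 in VCAP, 0.03 in PC3 and -0.11 in LNCaP. The mitochondrial share fell between the same repeats from 22.5% to 15.3%, and its part in the differences was not tested. Without DU145 repeat 2, the log2 difference of DU145 and PC3 from the other lines was still 1.65 for SLC2A1, 1.74 for PFKP, 1.64 for PKM and 1.67 for LDHA.

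**Figure D4:**
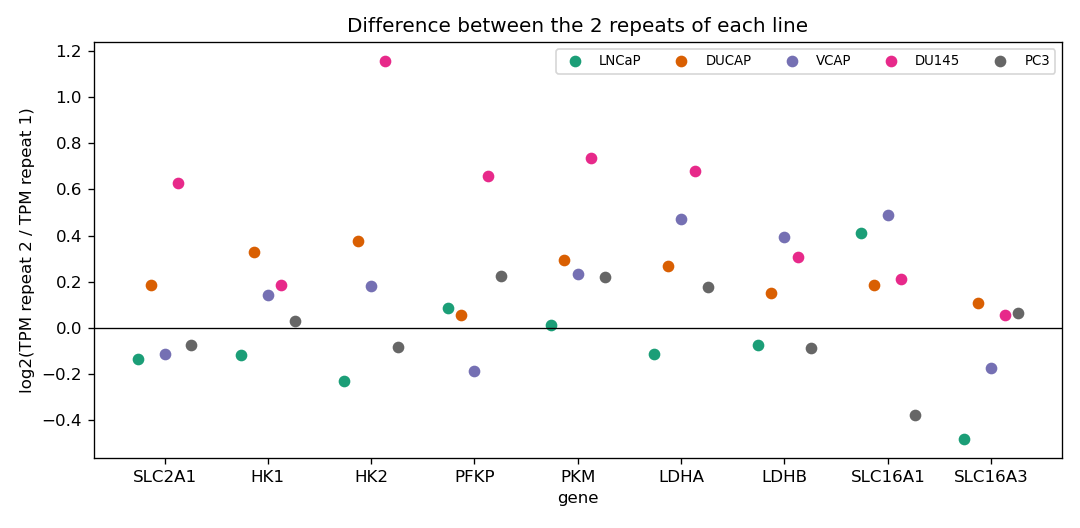
Log2 ratio of TPM in repeat 2 to TPM in repeat 1 (vertical axis) for the 9 tested genes (horizontal axis), with a coloured point for each line and a black line at 0. The 9 DU145 points are above 0, highest for HK2 where the ratio is 2.23. The DUCAP points are also above 0, highest for HK2 where the ratio is 1.30, while the LNCaP, VCAP and PC3 points lie on both sides.

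Other genes of the pathway were described from a list of 79 genes in 7 groups, of which 67 were tested. In DU145 and PC3, 45 of these were higher and 9 lower than in LNCaP, DUCAP and VCAP, where 51.9% of all genes were higher and 22.5% lower, with a median log2 difference of 0.73 beside 0.40 for all genes. The split became 39 to 13 without the mitochondrial genes, 34 to 16 under quantile normalization and 33 to 17 under median-ratio scaling. Over all genes, the higher and lower calls were 9093 and 3940 on the deposited scale. They were 7819 and 4932, 5932 and 6896, and 6616 and 6092 under these scalings in turn. The direction of a group is therefore given below with its counts under these scalings, and several of the genes named were picked after their values were seen.

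Of the 13 tested glycolysis enzymes, 9 were higher in DU145 and PC3 and 2 lower, and 7 to 9 were higher and 3 lower under the other scalings. ENO1, the common enolase, had 2262 to 2713 TPM in DU145 and PC3 and 453 to 953 TPM in the other lines. Its log2 difference of 2.06 was 1.58 to 2.19 under the other scalings. ALDOA, the muscle type aldolase, had 1456 to 3340 TPM in DU145 and PC3, 1376 and 1360 TPM in LNCaP and 231 to 461 TPM in DUCAP and VCAP. PGK1, phosphoglycerate kinase, had 1008 and 1194 TPM in PC3 and only 196 and 348 TPM in DU145, within the reach of LNCaP at 323 and 347 TPM. The lower genes were PFKM, described above, and the brain type aldolase ALDOC, which had 2.12 and 2.04 TPM in DU145 and 43.1 and 58.3 TPM in PC3. GAPDH had 2336 to 5377 TPM over the 10 samples and was called higher at 0.72, but not under median-ratio scaling (0.25, adjusted p = 0.0648). The 5 tested genes that set fructose 2,6-bisphosphate or reverse the phosphofructokinase step, the activator of that step and its opponents alike, were all called higher under each scaling. Among them PFKFB3, which makes the activator, had 20.9 to 34.0 TPM in DU145 and PC3 and at most 9.87 TPM elsewhere. FBP1, which hydrolyses fructose 1,6-bisphosphate, had 7.89 to 21.6 TPM in DU145 and PC3, 14.9 and 12.3 TPM in VCAP and at most 0.54 TPM in LNCaP and DUCAP.

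The genes of the fate of pyruvate were the group with more lower than higher calls, with 5 of 12 lower and 3 higher in DU145 and PC3, and 6 to 8 lower and 2 or 3 higher under the other scalings. The groups overlapped for all 5 lower genes. They were both subunits of the mitochondrial pyruvate carrier, MPC1 (-0.88) and MPC2 (-0.84), the pyruvate dehydrogenase subunits PDHA1 (-0.29) and DLAT (-0.33), and the D-lactate dehydrogenase LDHD (-0.71). MPC2 had 190.55 and 128.86 TPM in LNCaP and 29.19 to 49.1 TPM in the other lines, and LDHD was likewise high in LNCaP, as given below. PDHA1 had 81.31 and 108.37 TPM in DU145 but 219.89 and 207.03 TPM in PC3, above all samples of the other lines. The genes called higher were the pyruvate dehydrogenase kinases PDK2 (1.76) and PDK4 (1.80), which inhibit the complex, and the phosphatase PDP1 (0.86), which activates it and was not called under quantile normalization or median-ratio scaling. All 7 genes of the pentose phosphate pathway were called higher. This became 5 without the mitochondrial genes and 3 under quantile normalization and median-ratio scaling, where fewer of all genes were called higher as well. Of the 10 tested genes of sugar and lactate transport, 6 were higher and none lower, with a median of 0.34 beside 0.40 for all genes. Under the other scalings 5 were higher and 2 or 3 lower. Of the 6 tested genes of pH control, 3 were higher and 1 lower, and 2 or 3 were higher and 1 lower under the other scalings.

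Of the 14 genes of the hypoxia response, 12 were higher in DU145 and PC3 and 1 was lower, and 8 to 10 were higher and 1 or 2 lower under the other scalings. HIF1A, the regulated subunit of the factor, had 249 to 475 TPM in DU145 and PC3 and 85.4 to 114 TPM in the other lines. EPAS1, its close relative, had 90.9 and 25.7 TPM in the DU145 repeats, 25.6 and 22.7 TPM in PC3 and at most 16.3 TPM elsewhere. P4HA1, a collagen prolyl hydroxylase, had 182 and 213 TPM in PC3, 39.0 and 46.2 TPM in DU145 and 6.78 to 29.5 TPM elsewhere. ANGPTL4, a secreted regulator of lipoprotein lipase, had 5.52 to 11.2 TPM in DU145 and PC3 and at most 0.24 TPM elsewhere. The oxygen sensor EGLN3 was the one called lower on the log2 scale (-0.41), but its mean TPM was 4.35 in DU145 and PC3 and 4.11 in the other lines. It had 9.21 and 7.86 TPM in DU145, 7.97 and 8.19 TPM in LNCaP, 1.8 to 2.79 TPM in DUCAP and VCAP, and 0.07 and 0.27 TPM in PC3. NDRG1 did not follow the lines in this way, with 862 to 933 TPM in VCAP, 525 and 555 TPM in DUCAP, 315 and 456 TPM in PC3 and 47.5 and 62.6 TPM in LNCaP. Its DU145 repeats were 189 and 36.96 TPM, the opposite order to the glycolytic genes. RNA levels of HIF1A do not report the protein, which is set by oxygen.

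**Figure D5:**
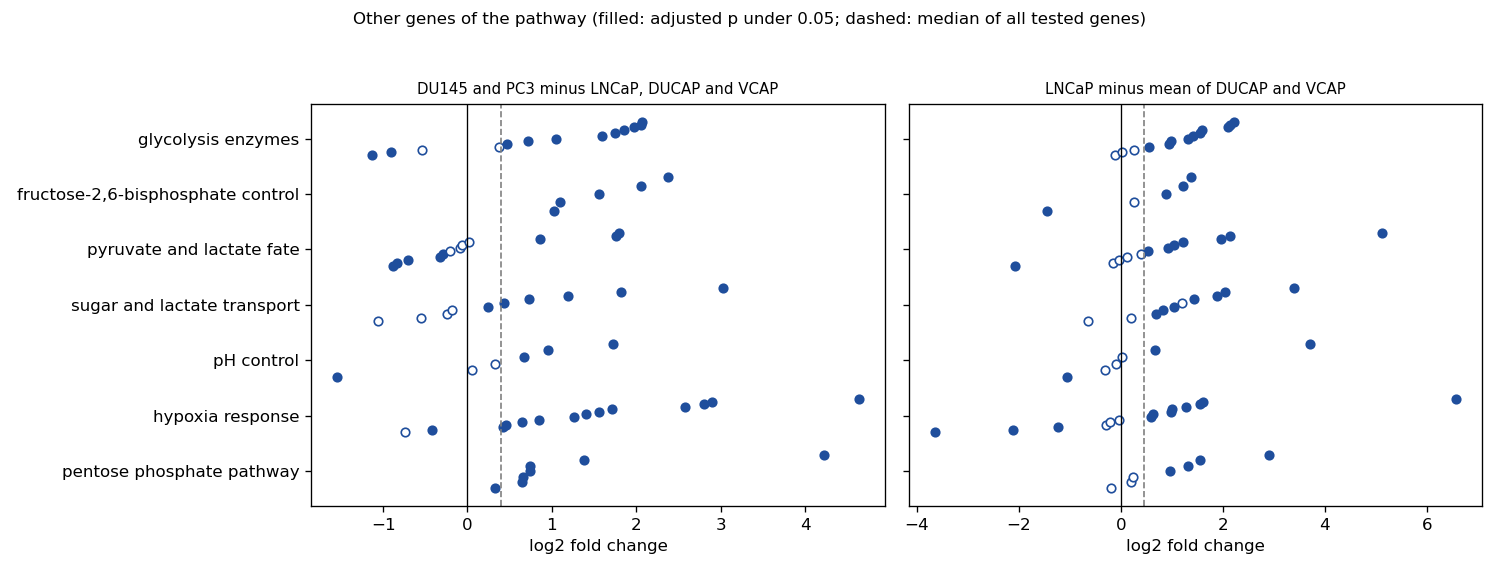
Log2 fold change on the log2(TPM + 1) scale (horizontal axis, own scale per panel) of the 67 tested genes of the pathway list in their 7 groups (rows), for DU145 and PC3 against the other lines at left and LNCaP against the mean of DUCAP and VCAP at right, with filled points for adjusted p under 0.05 and a dashed line at the median of all tested genes. At left the points of the hypoxia and pentose phosphate groups lie mostly right of 0, and the pyruvate group lies on both sides with 5 lower and 3 higher calls.

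LNCaP was higher than DUCAP and VCAP for 41 of the 67 list genes and lower for 6, where 49.2% of all genes were higher and 15.5% lower, with a median of 0.93 beside 0.46 for all genes, and the split was 34 to 9, 29 to 17 and 28 to 17 under the other scalings. Among all genes, the higher and lower calls were 7190 and 3607, 5272 and 5183, and 5365 and 5097 under these scalings. The glycolysis enzymes were 10 higher and none lower on the deposited scale and 7 to 9 higher and at most 2 lower in the others. LDHD had 41.9 and 37.0 TPM in LNCaP, 2.84 and 2.97 TPM in PC3 and at most 0.39 TPM in the other lines. BNIP3L, a mitophagy receptor, had 86.1 and 102 TPM in LNCaP and 85.2 to 156 TPM in DU145 and PC3, and it was listed at 0 in all 4 DUCAP and VCAP samples. Between DUCAP and VCAP only 10 of the 67 were called, 3 higher and 7 lower, where 18.3% of all genes were called. This became 8 higher and 5 lower under quantile normalization and under median-ratio scaling, and leaving out 1 sample gave 3 called (without DUCAP repeat 1 or VCAP repeat 2) to 17 (without either DU145 repeat). The largest was FBP1, followed by PDK2 with 2.77 and 2.5 TPM in DUCAP and 37.5 and 30.0 TPM in VCAP. Between DU145 and PC3, 18 were higher and 23 lower in DU145, where 23.8% of all genes were higher and 25.5% lower, and the 41 calls dropped to 25 without PC3 repeat 2.

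Genes with the most similar pattern over the 10 samples were looked for among 10521 genes with a line mean of at least 10 TPM, as a description over samples that share 5 lines. SLC16A3 was closest to SPAG4 (r = 0.997) and FRMD6 (r = 0.996), and LDHA to the pentose phosphate enzyme RPIA (r = 0.994) and to CENPL (r = 0.992). HK1 was closest to MAP4K4 (r = 0.993) and ATG16L1 (r = 0.991), HK2 to EIF2B3 (r = 0.990) and DTD1 (r = 0.985), and PKM to CAPN2 (r = 0.989) and MCUB (r = 0.988). PFKP was closest to DYNC1H1 (r = 0.988) and SEMA4F (r = 0.987), SLC2A1 to PPP2R3C (r = 0.986) and FBXO45 (r = 0.984), and SLC16A1 to TMBIM4 (r = 0.982) and TM7SF3 (r = 0.981). The members were not each other's nearest genes, and LDHB, whose line means spanned 0.87 on the log2 scale, was not searched. With 5 lines, many genes share a pattern, and 73 to 482 genes had an r above 0.95 with a given member.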

How the data were processed

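The authors trimmed the reads with Trim Galore 0.6.5 after FastQC 0.11.9, aligned them with STAR 2.7.2b to GRCh38 with a combined Ensembl and Gencode annotation, ran RSEM 1.3.3 for quantification and deposited 1 table of TPM for the 10 samples. Repeats were not pooled, and TPM keep no read depth. Libraries were strand-specific, poly(A)-enriched and made from untreated cultures. Groups were the 5 lines of the labels, 2 repeats each.

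The 17520 of 60642 symbols that reached 1 TPM in 2 or more samples were fitted with limma 3.58.1 in R 4.3.3 on log2(TPM + 1), with 1 coefficient per line, a prior variance that follows the mean level, and p-values adjusted by Benjamini-Hochberg over all genes at 0.05. The fit and the exact permutation test of the 3 isoform ratios, two-sided by construction of its F statistic, were tested on simulated data. The members and lists were chosen with earlier results of these data known. Named genes were the 10 members, close paralogs and partners. From the list of 79 genes they included the 3 largest called rises and falls of each contrast without overlap between groups. Other genes of that list, ENO1, PGK1 and PFKFB3 among them, fell outside this rule, and several were picked after their values were seen. Alternatives were other pseudocounts, filters, scalings, variance models, a 2-fold minimum, a replicate block and each sample left out. Promoters and coordinates came from RefSeq tables of GRCh38.p14. Deviations of samples with the same repeat number had a mean correlation of 0.00922 over 10 pairs of lines, from -0.19 to 0.25. In the labels of DU145 and PC3 the culture numbers differ in part from the repeat numbers. A pairing by culture was not tested. Treated LNCaP cells, xenografts and public data of the study were not analysed here. Values of 2 single genes of the wider list are not reported here.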

Additional observations from a re-analysis of the deposited data

How the results depend on the processing

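All 9 tested members differed between the lines in every alternative run. Members called between DU145 with PC3 and the other lines were 7 to 9 in all alternatives, from 8. A minimum of 2-fold cut the members called to 4 from 8 between DU145 and PC3, to 0 from 1 between DUCAP and VCAP, to 3 from 6 for LNCaP, and to 7 from 16 between neighbouring lines, and the list genes called to 30 from 54, 26 from 41 and 6 from 10 in the first 3 contrasts. Members called between DUCAP and VCAP were 2 without the mitochondrial genes and 3 under quantile normalization and median-ratio scaling. Leaving out 1 sample at a time gave 25 to 45 list genes between DU145 and PC3 (lowest without PC3 repeat 2), 1 or 2 members and 3 to 17 list genes between DUCAP and VCAP (17 without either DU145 repeat, at most 6 without any LNCaP, DUCAP or VCAP repeat), 2 to 7 members for LNCaP (lowest without LNCaP repeat 1), and a span of 1.04 to 1.14 for HK2 over HK1. A contrast left with a lone sample assumes that it varies like the other lines.

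Some directions turned, none of them called in both fits. For LNCaP, SLC2A1 became -0.074 and -0.093 and PFKP -0.14 and -0.17 under quantile normalization and median-ratio scaling, HK1 -0.24, -0.55 and -0.60 and PKM -0.13, -0.087 and -0.50 without mitochondrial genes and under those scalings, and HK1 ran from -0.029 (without DUCAP repeat 1) to 0.13 with 1 sample left out, and was -0.0064 without LNCaP repeat 1. PKM between DU145 and PC3 was 0.0057 without mitochondrial genes, ran from -0.45 to 0.29 with 1 sample left out (0.29 without DU145 repeat 1, 0.030 without PC3 repeat 2), and was 0.028 between DUCAP and VCAP under median-ratio scaling. Between DUCAP and VCAP, LDHA ran from -0.20 (without VCAP repeat 1) to 0.27, at -0.10 without DUCAP repeat 2, and SLC16A1 from -0.12 (without VCAP repeat 1) to 0.34. The cause was not tested. With the repeat number as a block, members called were 8, 8, 1 and 7 in the 4 contrasts, with LDHB added for LNCaP (-0.36, adjusted p = 0.0473), and no other member's call changed. Without counts, depth could not be weighed for the low values of CA9 and SLC16A3.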
